A study of Mus musculus with 9 samples.

Results

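Semaphorins, plexins, neuropilins, ephrins and Eph receptors are the cell-surface and secreted proteins through which cells attract, repel and sort from each other. The families were chosen with earlier results of these data known, and their genes were then taken by symbol. Probe-sets are the oligonucleotide sets that each report 1 transcript region. All probe-sets named for a semaphorin of classes 3 to 7, a plexin, a neuropilin, an ephrin or an Eph receptor were included. There were 123 such probe-sets, of 52 genes, among 45101 probe-sets on the array and 18194 genes with a probe-set of their own. By family these were 7 class 3, 6 class 4, 2 class 5, 4 class 6 and 1 class 7 semaphorin genes, 9 plexins, 2 neuropilins, 5 ephrins A, 3 ephrins B, 9 Eph receptors A and 4 Eph receptors B.

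Expression was measured on 9 arrays of primary mouse embryonic fibroblasts (MEFs), 3 of Tgif1 null cells at passage 3 (P3), 3 of wild type cells at passage 5 (P5) and 3 of wild type cells at P3. All were grown on a 3T3 protocol, in which a fixed number of cells is replated at fixed intervals. The cells were cultures from 13.5 day embryos of a mixed C57BL/6J and 129Sv/J background, so each array reports a population of cells and not a purified type. Tgif1 encodes a homeodomain protein that represses transcription, in part as a co-repressor of the Smad proteins that carry TGF-β signals. Values are log2 signals, on which a difference of 1 is a doubling, and the lowest value on every array was 2.23. In bulk RNA, fewer cells of a type and less RNA per cell cannot be told apart.

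Semaphorins are recognised by plexins, whose intracellular part acts on small GTPases and so on the actin cytoskeleton and integrin adhesion. Most secreted class 3 semaphorins do not bind a plexin alone and need a neuropilin, Nrp1 or Nrp2, as the ligand-binding partner, while membrane-bound semaphorins bind plexins directly. Neuropilins also bind VEGF proteins. Ephrins are held on the membrane, by a lipid anchor in class A and by a transmembrane segment in class B, and bind Eph receptor tyrosine kinases on touching cells, with signals in both directions. In embryonic mesenchyme these systems are known for guiding neural crest cells, axons and vessels and for keeping tissue boundaries.

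The results turned on 3 genes, Sema5a, Nrp1 and Nrp2, and the sequences upstream of their starts are shown as RefSeq gives them for build GRCm38.p6, on the strand of the gene and 5′ to 3′. For Sema5a the 150 bases shown, chr15:32244663-32244812 on the plus strand, are all that lie between its start and that of Snhg18, a long non-coding RNA that hosts small nucleolar RNAs and is transcribed from the opposite strand. For Nrp1 (chr8:128358823-128359072, plus strand) and Nrp2 (chr1:62703067-62703316, plus strand) the 250 bases before the start are shown. Capitals mark GGGCGG on either strand, the GC box bound by Sp1-family factors.
Sema5a to Snhg18: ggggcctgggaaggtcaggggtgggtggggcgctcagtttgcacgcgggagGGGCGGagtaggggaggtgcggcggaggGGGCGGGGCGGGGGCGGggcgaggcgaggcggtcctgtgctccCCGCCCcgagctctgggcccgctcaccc
Nrp1: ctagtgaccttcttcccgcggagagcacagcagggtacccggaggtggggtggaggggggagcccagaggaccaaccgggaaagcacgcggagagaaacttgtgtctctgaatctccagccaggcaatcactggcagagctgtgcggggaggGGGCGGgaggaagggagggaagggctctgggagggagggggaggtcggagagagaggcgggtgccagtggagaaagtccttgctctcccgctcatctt
Nrp2: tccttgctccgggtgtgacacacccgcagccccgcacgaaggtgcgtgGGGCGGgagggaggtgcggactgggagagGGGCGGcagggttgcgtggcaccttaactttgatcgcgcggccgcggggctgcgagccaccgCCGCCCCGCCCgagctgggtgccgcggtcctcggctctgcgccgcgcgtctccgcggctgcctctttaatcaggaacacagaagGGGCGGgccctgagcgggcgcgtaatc

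The bases between Sema5a and Snhg18 held GGGCGG or its reverse complement at 5 places, with a GC content of 79.3%. The Nrp1 stretch held 1 such match at 64.4% GC, and the Nrp2 stretch 5 at 72.4% GC. Of the 52 genes, 46 matched promoter windows in the RefSeq table, 60 windows in all, each of 250 bases before a start and 50 after it. Their median GC content was 64.0%, with a median of 19.5 CpG dinucleotides, against 52.7% and 7 over all 32851 windows of the table. The same motif was present in 76.7% of the family windows and 35.7% of all windows. Motifs of 3 factors tied to Tgif1 or to growth factor signals were searched on both strands in the same windows, and no motif searched contains another. CTGTCA, the homeodomain motif of TGIF proteins, was found in 10 of the 60 family windows (16.7%, against 19.2% of all windows), and in 0 of the 10 windows matched to genes called changed in any comparison below. Those windows covered 9 of the 10 called genes, with a pair of windows for Efna1 and none for Sema3f. The Smad palindrome GTCTAGAC was found in 0 family windows (0.213% of all), the AP-1 motif TGANTCA in 3 (7.81% of all) and the TATA box TATAAA in 1 (13.6% of all). These matches describe the letters of the windows only.

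Tgif1 itself had log2 signals of 2.48 to 3.21 on the Tgif1 null P3 arrays, 10.06 to 10.18 on the wild type P5 arrays and 9.72 to 9.95 on the wild type P3 arrays, in the direction the labels give. All 8 fibroblast markers measured were above 4. Of these 2, Col1a2 and Fn1, rose in wild type P5 against P3 cells, by 0.26 and 0.36. The same 2 fell in Tgif1 null P3 against wild type P5 cells, by 0.26 and 0.23. Some markers of other cells were also present. Of 8 striated muscle markers 6 rose in Tgif1 null P3 cells against both wild type groups, and their summed linear signal ran over 1351 to 2255 in Tgif1 null P3, 154 to 162 in wild type P5 and 401 to 420 in wild type P3 cells. Of 10 macrophage markers 2 rose in Tgif1 null P3 cells against wild type P3 and 6 against wild type P5 (summed signal 774 to 1158 in Tgif1 null P3, 356 to 424 in wild type P5, 488 to 523 in wild type P3). Of 10 endothelial markers 7, Pecam1, Cdh5, Tek, Tie1, Vwf, Esam and Cldn5, stayed under 4 on all arrays. So did the muscle markers Myod1 and Ckm and the macrophage markers Adgre1 and Ptprc. The part of these cells in the values of Sema5a and the other genes below was not tested.

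A probe-set was taken as detected when its log2 signal was above 4 on at least 3 arrays, which was so for 56 of the 123 probe-sets, of 34 genes. Another 64 stayed under 4 on all arrays, and 44 spanned less than 0.1 over the 9 arrays. The 18 genes without a detected probe-set were Sema3g, Sema4a, Sema4d, Sema4g, Sema5b, Sema6a, Sema6b, Sema6c, Plxna4, Plxnb1, Plxnc1, Efnb3, Epha5, Epha6, Epha8, Epha10, Ephb1 and Ephb6. No statement on a change can be made for these. The 34 detected genes held both arms of each system, with secreted and membrane semaphorins, A, B and D plexins, both neuropilins, all 5 ephrins A, and Eph receptors of both classes.

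Between Tgif1 null P3 and wild type P3 cells, 1 family gene passed in the fit of all probe-sets. No probe-set of the 123 rose in Tgif1 null P3 cells, against 0.898% of all probe-sets, and 3 fell, against 0.692%, by the limma fit over all 9 arrays with an adjusted p under 0.05. All 3 belonged to Sema5a, and 2 of them were detected. In a fit of detected probe-sets alone 5 fell, so probe-sets of other genes passed there. At an unadjusted p under 0.05, 4 family probe-sets were higher and 12 lower (3.25% and 9.76%, against 5.2% and 5.02% of all probe-sets), so the calls leave out smaller differences that did not pass. Tgif1 null P3 arrays lay entirely above the wild type P3 arrays for 4 family probe-sets and entirely below for 14 (all probe-sets, 5.57% and 5.31%). Selection by a moderated F test over the 3 groups, at p under 0.0001 with a log2 difference of at least 0.5, took 0 higher and 2 lower, both of Sema5a (all probe-sets, 0.313% and 0.255%).

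**Figure D1:**
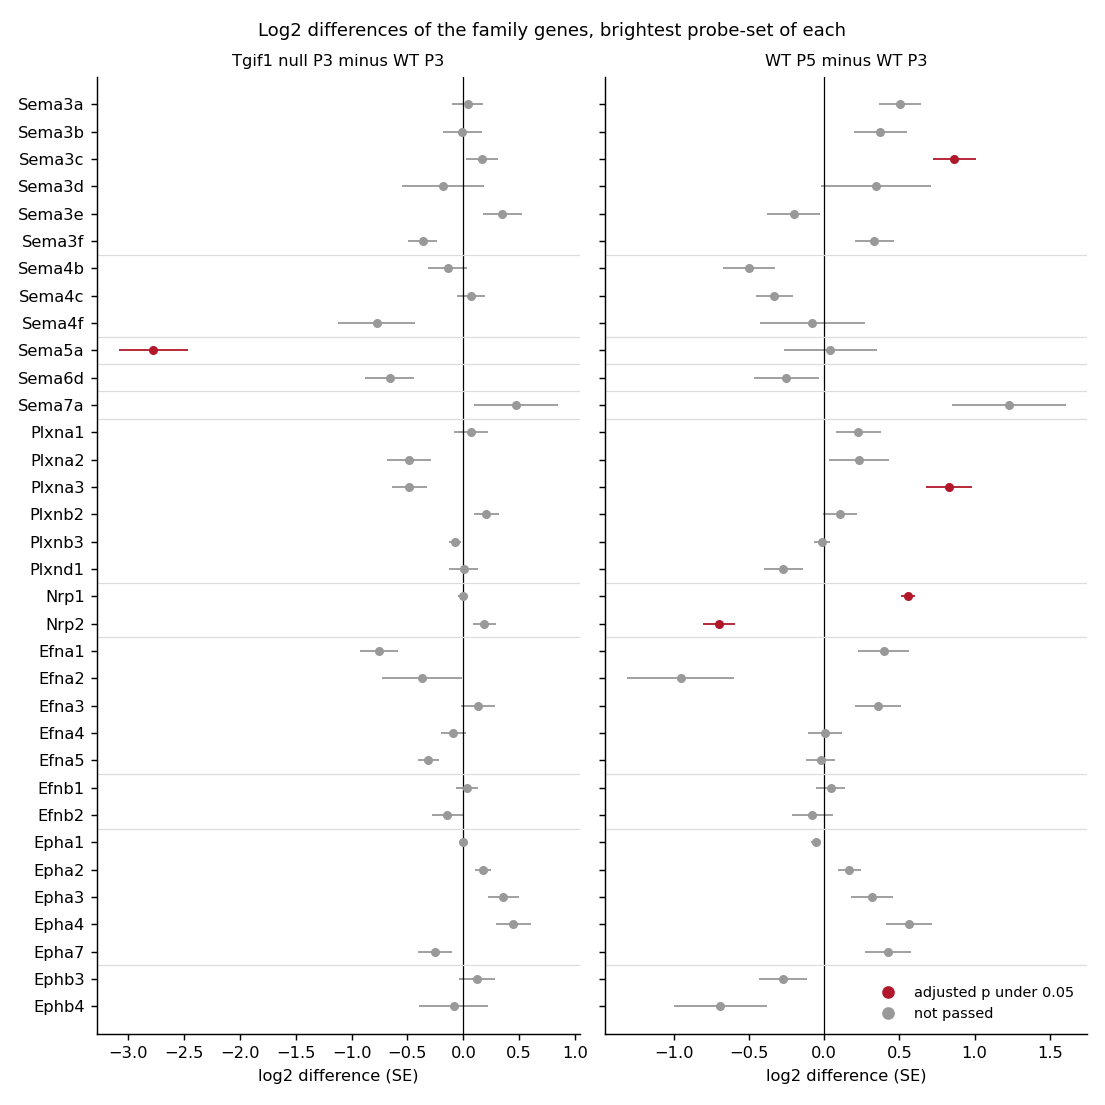
Log2 differences (points) with their standard errors (bars) for the 34 detected genes, each by its brightest probe-set, in Tgif1 null P3 against wild type P3 cells (left) and wild type P5 against wild type P3 cells (right), with the 2 axes on different scales. Red points passed an adjusted p of 0.05, and on the left Sema5a alone did so, at -2.77.

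Sema5a, a transmembrane semaphorin with thrombospondin repeats that can attract or repel growing axons, had the largest differences of the family in Tgif1 null cells. Its brightest probe-set, 1437422_at, read 4.70, 4.99 and 5.92 in Tgif1 null P3 cells, 8.12, 8.12 and 7.82 in wild type P5 cells and 7.94, 7.88 and 8.11 in wild type P3 cells. Each Tgif1 null array lay below each wild type array, and the wild type groups overlapped. Sema5a fell by 2.77 (SE 0.31) on the log2 scale in Tgif1 null P3 cells against wild type P3, which is 6.84-fold lower (adjusted p = 0.0151), and by 2.81 against wild type P5, 7.04-fold lower (adjusted p = 0.00421). Between wild type P5 and P3 the difference was 0.04 (95% interval -0.70 to 0.78). The spread within Tgif1 null arrays (SD 0.64) was wider than within wild type P5 (0.17) or P3 arrays (0.12).

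A second Sema5a probe-set, 1434776_at, read 2.89, 2.53 and 3.32 in Tgif1 null P3, 5.06, 5.14 and 4.76 in wild type P5 and 4.93, 4.76 and 4.75 in wild type P3 cells, again with no overlap between Tgif1 null and wild type. Its Tgif1 null values were all under 4, so it was detected through the 6 wild type arrays alone and the size of its fall is not fixed. It fell by 1.90 (SE 0.21, adjusted p = 0.0151) against P3 and by 2.07 (adjusted p = 0.00330) against P5. The third, 1422167_at, was under 4 on all arrays and thus not detected, with 2 of 3 Tgif1 null arrays at the lowest value of the arrays. It passed the test against P3 (-0.75, adjusted p = 0.0440) and not against P5 (-0.43, adjusted p = 0.101), at signals from which no change is read. The fourth, 1459109_at, stayed at the lowest value in both wild type groups and averaged 2.24 in Tgif1 null cells. The call of 1437422_at against P3 was lost without Tgif1 null replicate 2 (adjusted p = 0.0572), wild type P3 replicate 1 (0.0646) or wild type P3 replicate 3 (0.0581), in a fit of the 6 P3 arrays alone (0.110) and with a trended robust prior (0.0524), and that of 1434776_at without wild type P3 replicate 1 (0.0665) or replicate 3 (0.0547), with the 6 P3 arrays alone (0.0939) and with the trended robust prior (0.0643), while 1422167_at lost it without any array but wild type P5 replicate 2 (0.0754 to 0.132). With a replicate block all 3 probe-sets lost the call against P3 too. Against P5, 1437422_at kept its call under all 18 alternatives and 1434776_at under all 17 that could be run.

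The genes beside Sema5a on chromosome 15 were then read, a choice made after the Sema5a values were seen. Of the 8 annotated genes on each side, 8 in all had a probe-set and 4 a detected one. Snhg18, whose start lies 151 bases from that of Sema5a, read 7.21, 7.19 and 7.15 in Tgif1 null P3, 6.24, 6.17 and 6.29 in wild type P5 and 6.40, 5.92 and 6.42 in wild type P3 cells. Tgif1 null arrays were thus all higher for Snhg18 where they were all lower for Sema5a. Snhg18 rose by 0.94 (SE 0.13, adjusted p = 0.0300) against P3 and by 0.95 (adjusted p = 0.00993) against P5, and differed by -0.02 between P5 and P3. Atpsckmt, which encodes a methyltransferase of an ATP synthase subunit and lies 8 genes before Sema5a, rose too, by 1.11 (SE 0.13, adjusted p = 0.0188) against P3 and by 1.12 (adjusted p = 0.00569) against P5. On the other side, the brightest probe-sets of Sdc2, a syndecan proteoglycan, and Cpq, a carboxypeptidase, did not pass against P3 in Tgif1 null cells (0.40 and 0.49, adjusted p = 0.267 and 0.0638), nor did the other detected Sdc2 probe-sets (0.06 and 1.17, adjusted p = 1 and 0.106). Both genes rose in wild type P5 against P3 cells, by 0.73 (adjusted p = 0.0167) and 1.76 (adjusted p = 0.000389).

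**Figure D2:**
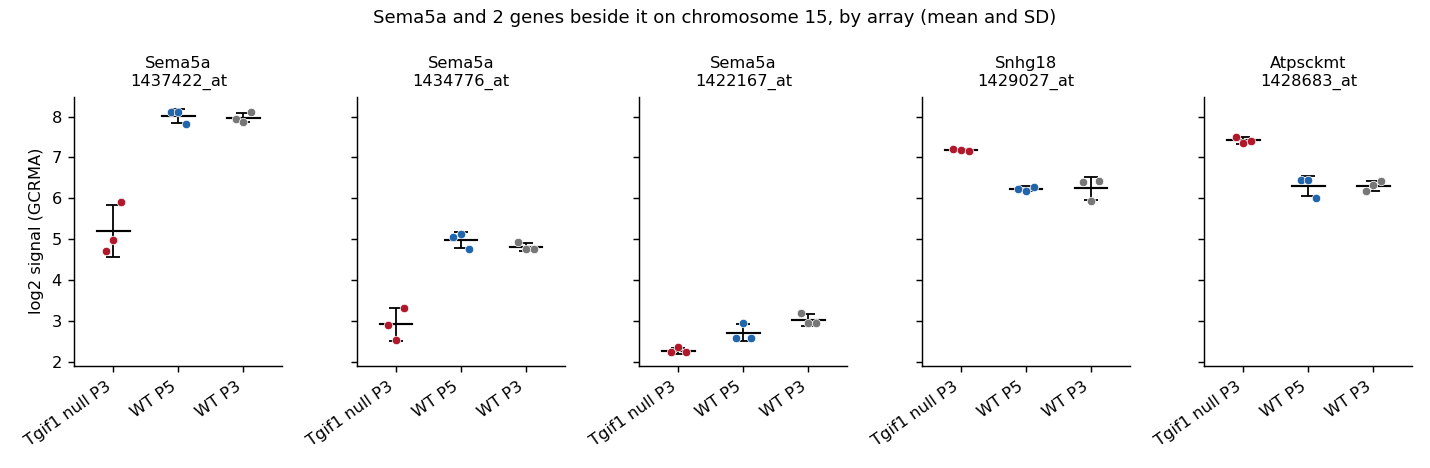
Log2 signal of 3 Sema5a probe-sets, Snhg18 and Atpsckmt on each array (points), with the group mean (line) and SD (bars), for Tgif1 null P3, wild type P5 and wild type P3 cells. For Sema5a 1437422_at the Tgif1 null arrays sit between 4.70 and 5.92, under all wild type arrays, while for Snhg18 they sit between 7.15 and 7.21, above them.

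Plexin B3, a receptor of semaphorin 5A, read 5.42 ± 0.11 in Tgif1 null P3, 5.48 ± 0.03 in wild type P5 and 5.49 ± 0.03 in wild type P3 cells (SD, n = 3 each), and the interval of the Tgif1 null minus P3 difference ran from -0.20 to 0.05. For plexin A1, which also binds it in the mouse retina, that interval ran from -0.29 to 0.43. Neither of them passed in any comparison. The plexin B3 value 5.465 recurred on arrays of all 3 groups, as values of undetected probe-sets do. Its small SDs are thus not read as a steady level. Plexin A3, another retinal receptor of class 5 semaphorins whose values follow below, fell by 1.31 against P5 (adjusted p = 0.00539) and differed from wild type P3 by -0.48, not passed. Sema5b, the other class 5 gene, was not detected.

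With passage, between wild type P5 and P3 cells, 8 family probe-sets rose and 4 fell, against 4.29% and 4.33% of all probe-sets, which makes 6.5% and 3.25% of the family. Those that rose were 3 of Nrp1, 2 of Sema3c and 1 each of Sema3a, Sema3f and Plxna3. Those that fell were 3 of Nrp2 and 1 of Sema3e. These 12 calls came from 7 genes and made 9.76% of the 123 probe-sets, beside 8.62% of all probe-sets in both directions together. By the brightest probe-set of each gene 4 of 52 passed (7.69%, beside 13.2% of all genes), so the family as a whole stood near the background. The called genes were of class 3 semaphorins, neuropilins and plexins, and the families were not set against each other by a test. Wild type P5 arrays lay entirely above P3 arrays for 24 family probe-sets and entirely below for 12 (all probe-sets, 11.2% and 10.9%). The F test selection took 1 higher and 0 lower (all probe-sets, 0.856% and 0.639%).

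The neuropilins moved in opposite directions. Nrp1, the receptor part for semaphorin 3A and for VEGF, had its brightest probe-set, 1448943_at, at 11.58, 11.62 and 11.63 in Tgif1 null P3, 12.25, 12.16 and 12.10 in wild type P5 and 11.62, 11.67 and 11.55 in wild type P3 cells. Wild type P5 arrays stood above all others, and the P3 groups of both genotypes overlapped. Nrp1 rose by 0.56 (SE 0.046, adjusted p = 0.00145) in P5 against P3, 1.47-fold higher, and its other detected probe-sets rose by 0.48 (1418084_at, adjusted p = 0.00941) and 0.60 (1448944_at, adjusted p = 0.00515). In Tgif1 null P3 cells Nrp1 fell by 0.56, 0.46 and 0.66 against P5 on the same probe-sets (adjusted p = 0.00165, 0.0131 and 0.00421), the second call being lost without Tgif1 null replicate 2 (0.0506). Against wild type P3 the difference on 1448943_at was -0.00, with an interval of -0.11 to 0.11. The fourth probe-set, 1457198_at, was not detected.

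Nrp2, the preferred partner of semaphorin 3F and of VEGF-C, read on its brightest probe-set, 1456778_at, 10.26, 9.91 and 10.01 in Tgif1 null P3, 9.08, 9.26 and 9.17 in wild type P5 and 9.84, 9.77 and 9.99 in wild type P3 cells. Here wild type P5 arrays stood below all others. It fell by 0.70 (SE 0.11, adjusted p = 0.0118) in P5 against P3, 1.62-fold lower, and 1435349_at and 1426528_at fell by 0.96 (adjusted p = 0.0151) and 0.78 (adjusted p = 0.0137). These probe-sets rose in Tgif1 null P3 cells by 0.89, 1.15 and 1.06 against P5 (adjusted p = 0.00575, 0.00909 and 0.00542) and differed from wild type P3 by 0.19, 0.19 and 0.27, none of which passed. The P5 against P3 call was lost for 1435349_at without any 1 wild type array but P3 replicate 2 (adjusted p = 0.0522 to 0.0615), and for 1426528_at without P3 replicate 1 (0.0553) or P5 replicate 1 (0.0559). The fourth probe-set, 1447343_at, was not detected.

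Within each array, the brightest Nrp1 signal minus the brightest Nrp2 signal was 1.26 higher on the log2 scale in wild type P5 than in wild type P3 cells, a 2.39-fold change of their ratio, with no overlap of arrays. Between Tgif1 null P3 and wild type P3 cells it differed by -0.19, with overlap. Some epithelial and muscle markers fell where Nrp2 fell. Krt18 fell by 2.66 (adjusted p = 0.000411) in P5 against P3, as 1 of 6 epithelial and mesothelial markers (summed signal 315 to 334 in P5, 666 to 727 in P3). Msln, the other detected marker of that list, had its P5 arrays above its P3 arrays (0.20, adjusted p = 0.642). Of 8 muscle markers 2, Actc1 and Myh3, fell too. The part of these markers in the neuropilin values was not tested. Neuronal markers moved too. Of 8 measured, 3, Nefl, Dcx and Snap25, stayed under 4 on all arrays, and in P5 against P3 Map2 rose by 1.07 (adjusted p = 0.0454) and Nefm fell by 1.08 (adjusted p = 0.0162). Against P5, Tgif1 null P3 cells differed in 4 of these markers. Tubb3 rose by 1.07 (adjusted p = 0.0289) and Nefm by 1.44 (adjusted p = 0.00685), while Map2 fell by 1.48 (adjusted p = 0.0173) and Stmn2 by 1.57 (adjusted p = 0.00750). The summed signal of the neuronal markers was 814 to 852 in Tgif1 null P3, 1697 to 1995 in wild type P5 and 885 to 1299 in wild type P3 cells. Stmn2, the brightest, made the largest share of that sum. Stmn2 and Map2 had the order of groups that Sema3f and plexin A3 show below. Tubb3 and Nefm had the reverse order, highest in Tgif1 null P3 and lowest in wild type P5 cells. The part of these markers in the values of Sema3f and plexin A3 was not tested. None of 4 Schwann cell and neural crest markers measured passed in any comparison, and 3 stayed under 4 on all arrays.

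**Figure D3:**
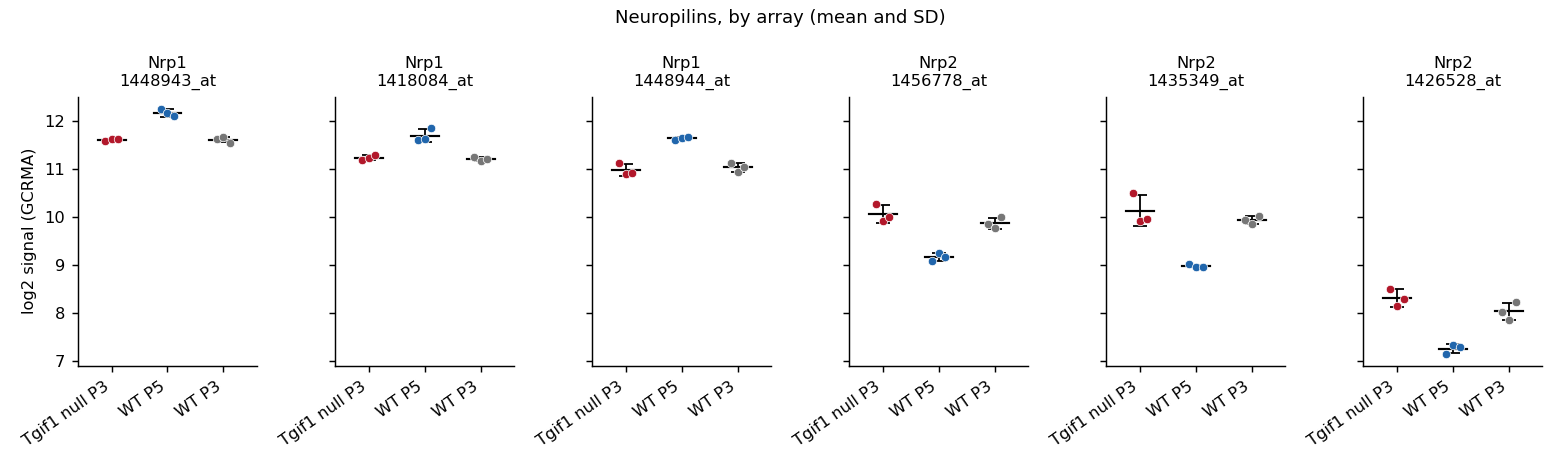
Log2 signal of the 3 detected probe-sets of Nrp1 and of Nrp2 on each array (points), with the group mean (line) and SD (bars), for Tgif1 null P3, wild type P5 and wild type P3 cells. On 1448943_at the wild type P5 arrays sit between 12.10 and 12.25, above all P3 arrays, and on 1456778_at between 9.08 and 9.26, below them.

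Among the ligands of these receptors, Sema3c, a class 3 semaphorin that binds both neuropilins and is needed for cardiac outflow tract septation, read 10.57, 11.07 and 11.09 in Tgif1 null P3, 11.66, 11.66 and 11.50 in wild type P5 and 10.73, 10.74 and 10.76 in wild type P3 cells (1429348_at). Wild type P5 arrays were above all others. It rose by 0.87 (SE 0.14, adjusted p = 0.0152) in P5 against P3, and 1420696_at rose by 0.76 (SE 0.084, adjusted p = 0.00428). In Tgif1 null P3 cells they fell by 0.70 (adjusted p = 0.0363) and 0.59 (adjusted p = 0.0109) against P5, and differed from wild type P3 by 0.17 and 0.16 (both not passed). The calls of 1429348_at were lost in P5 against P3 without P3 replicate 1 or 3 or P5 replicate 1 or 2 (adjusted p = 0.0558 to 0.0642), and in Tgif1 null against P5 without any 1 array but Tgif1 null replicate 1 or 3 (0.0621 to 0.129). Those of 1420696_at held without each array in turn.

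Sema3a, the classic collapsing factor for growth cones, read on 1449865_at 7.28, 7.64 and 7.87 in Tgif1 null P3, 8.52, 8.66 and 8.61 in wild type P5 and 7.58, 7.98 and 7.31 in wild type P3 cells. It rose by 0.98 (SE 0.21, adjusted p = 0.0392) in P5 against P3, and in Tgif1 null P3 cells it fell by 0.999 against P5 (adjusted p = 0.0406). On the brightest probe-set, 1420416_at, the same differences were 0.50 (adjusted p = 0.0940) and -0.47 (adjusted p = 0.132), in the same directions and not passed, and the third probe-set was not detected. The calls of 1449865_at were lost in P5 against P3 without Tgif1 null replicate 2, P3 replicate 1 or 3 or any P5 array (adjusted p = 0.0783 to 0.133), and in Tgif1 null against P5 without any 1 array but P3 replicate 2 or 3 (0.0510 to 0.139).

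Sema3f, the Nrp2 ligand, had its wild type P5 arrays highest on all 3 probe-sets. On 1425840_a_at it read 4.83, 5.29 and 5.19 in Tgif1 null P3, 6.73, 6.70 and 6.91 in wild type P5 and 5.90, 5.49 and 5.90 in wild type P3 cells, with no overlap between any of the groups. It rose by 1.02 (SE 0.16, adjusted p = 0.0140) in P5 against P3, 2.03-fold, lost without P5 replicate 1 (0.0512). In Tgif1 null P3 cells it fell by 1.68 against P5, 3.20-fold (adjusted p = 0.00286), and differed from wild type P3 by -0.66 (adjusted p = 0.150, interval -1.05 to -0.27). In P5 against P3 the other probe-sets, 1438947_x_at and 1420508_at, differed by 0.33 (adjusted p = 0.232) and 0.58 (adjusted p = 0.128), neither of which passed, and on 1420508_at the Tgif1 null and wild type P3 arrays overlapped. Both fell in Tgif1 null P3 against P5 cells, 1438947_x_at by 0.70 (adjusted p = 0.0273) and 1420508_at by 0.95 (adjusted p = 0.0300). The call of 1438947_x_at was lost without any 1 array but Tgif1 null replicate 1 or P3 replicate 2 (adjusted p = 0.0503 to 0.103), and that of 1420508_at without any 1 array but Tgif1 null replicate 1 (0.0520 to 0.0998). On 1438947_x_at the 3 wild type P3 arrays held the same value, 6.10, to within 0.01, as they also did on Efnb1 1418286_a_at and Epha7 1451991_at, so the spread there is that of the other groups.

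Sema3e, which signals through plexin D1 without a neuropilin and restrains vessel growth, was the class 3 gene with lower signals at P5. Its probe-set 1442226_at read 6.18, 6.19 and 5.86 in Tgif1 null P3, 5.50, 5.54 and 5.27 in wild type P5 and 6.22, 5.91 and 6.00 in wild type P3 cells. It fell by 0.60 (SE 0.13, adjusted p = 0.0417) in P5 against P3, and in Tgif1 null P3 cells it rose by 0.64 against P5 (adjusted p = 0.0386). The other 3 probe-sets, among them the brightest, 1419717_at, differed by -0.41 to -0.11 in P5 against P3 and none passed. Both calls were lost without any 1 array but Tgif1 null replicate 3 (adjusted p = 0.0535 to 0.128 in P5 against P3, and 0.0512 to 0.121 in Tgif1 null against P5). Plexin D1 differed by -0.27 in P5 against P3 (interval -0.58 to 0.04). Single values recurred between groups on Sema3e 1419717_at (7.06, all 3 groups) and on plexin D1 (5.62, Tgif1 null P3 and wild type P5). The remaining detected class 3 genes, Sema3b and Sema3d, differed by 0.37 and 0.34 in P5 against P3, and neither passed. Sema3a, Sema3c, Sema3d and Sema3e lie on chromosome 5, and Sema3b and Sema3f on chromosome 9.

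Plexin A3, the signalling partner of neuropilins for semaphorins 3A and 3F, read 4.71, 4.97 and 4.61 in Tgif1 null P3, 6.25, 5.76 and 6.23 in wild type P5 and 5.29, 5.23 and 5.23 in wild type P3 cells (1420996_at). The order of the groups was that of Sema3f on 1425840_a_at, without overlap. It rose by 0.83 (SE 0.15, adjusted p = 0.0238) in P5 against P3, lost without any 1 wild type array but P5 replicate 2 (adjusted p = 0.0602 to 0.0834), and in Tgif1 null P3 cells it fell by 1.31 against P5 (adjusted p = 0.00539) and differed by -0.48 from wild type P3 (adjusted p = 0.289). The other 5 detected plexins, A1, A2, B2, B3 and D1, passed in no comparison. Plexin A2 read 6.19 ± 0.38 in Tgif1 null P3, 6.91 ± 0.18 in wild type P5 and 6.68 ± 0.10 in wild type P3 cells (SD, n = 3 each), with Tgif1 null P3 minus P5 at -0.72 (adjusted p = 0.0986).

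Between Tgif1 null P3 and wild type P5 cells, 4 family probe-sets rose and 14 fell (3.25% and 11.4%, against 3.58% and 3.65% of all probe-sets). Several of them were of the same gene. By the brightest probe-set of each gene 7 of 52 passed (13.5%, beside 11.4% of all genes), near the background by that count. Of these genes 1 rose and 6 fell (1.92% and 11.5%, beside 6.08% and 5.33% of all genes). Of the 56 detected family probe-sets 18 passed (32.1%), beside 16.9% of all detected probe-sets. Tgif1 null arrays lay entirely above P5 arrays for 9 family probe-sets and entirely below for 24 (all probe-sets, 10.8% and 10.1%), and the F test selection took 0 higher and 3 lower (all probe-sets, 0.605% and 0.856%). This comparison crosses genotype and passage, and it shares its P5 arrays with the comparison of wild type P5 with P3, and its Tgif1 null arrays with the first. The probe-sets that rose were the 3 of Nrp2 and the 1 of Sema3e. The probe-sets that fell were 2 of Sema5a, 3 of Nrp1, 1 of Sema3a, 2 of Sema3c, 3 of Sema3f and 1 each of Plxna3, Efna1 and Efnb1. Ephrins thus entered in this comparison alone, without a test of its difference from the others.

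**Figure D4:**
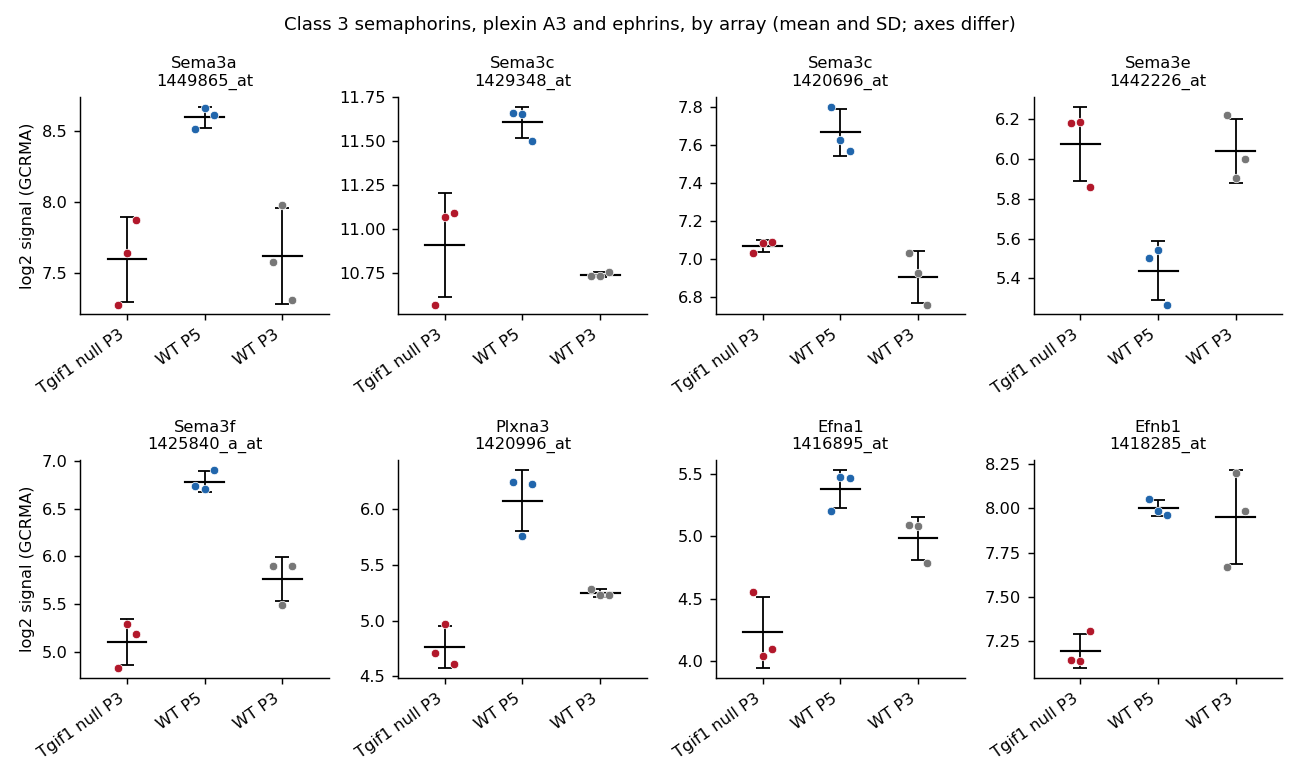
Log2 signal of 8 probe-sets of class 3 semaphorins, plexin A3 and ephrins on each array (points), with the group mean (line) and SD (bars), for Tgif1 null P3, wild type P5 and wild type P3 cells, each panel on its own axis. Sema3f, Plxna3 and Efna1 show Tgif1 null P3 lowest and wild type P5 highest, and Sema3e 1442226_at has its wild type P5 arrays lowest, between 5.27 and 5.54.

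Ephrin A1, a lipid-anchored ligand of EphA2 that is induced by TNF-α in endothelium, read 4.55, 4.04 and 4.09 in Tgif1 null P3, 5.20, 5.47 and 5.46 in wild type P5 and 5.09, 5.08 and 4.78 in wild type P3 cells (1416895_at). Tgif1 null arrays were below all wild type arrays. It fell by 1.15 (SE 0.17, adjusted p = 0.0118) against P5, lost without P5 replicate 2 (0.0528), and differed by -0.75 from P3 (adjusted p = 0.113). Its other probe-set, 1448510_at, was above 4 on 1 array and not passed. EphA2 read 8.90 ± 0.03 in Tgif1 null P3, 8.89 ± 0.03 in wild type P5 and 8.72 ± 0.16 in wild type P3 cells (SD, n = 3 each), with all 3 comparisons not passed.

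Ephrin B1, a transmembrane ligand encoded on the X chromosome and needed for craniofacial and skeletal patterning, gave different readings by probe-set. On 1418285_at it read 7.14, 7.14 and 7.31 in Tgif1 null P3, 8.05, 7.99 and 7.96 in wild type P5 and 7.67, 8.20 and 7.98 in wild type P3 cells, and fell by 0.81 (SE 0.13, adjusted p = 0.0176) against P5, with -0.76 against P3 (adjusted p = 0.0561). On 1418286_a_at these differences were -0.01 (interval -0.25 to 0.22) and 0.03, and on 1451591_a_at -0.14 and -0.17, with overlapping arrays. The call was lost without Tgif1 null replicate 1 or 2 or any P5 array (adjusted p = 0.0516 to 0.0714). Xist, the X-inactivation RNA, rose by 1.15 against P5 (adjusted p = 0.0469) and Kdm5d, on the Y chromosome, fell by 0.53 (adjusted p = 0.0470), as 2 of 4 sex-linked genes measured, and their part in the values of the X-linked Efnb1, Plxna3 and Plxnb3 was not tested.

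The other 5 detected ephrins, Efna2 to Efna5 and Efnb2, and all 7 detected Eph receptors passed in no comparison. Ephrin B2, the arterial ligand of EphB4, read 10.26 ± 0.23 in Tgif1 null P3, 10.32 ± 0.05 in wild type P5 and 10.40 ± 0.18 in wild type P3 cells (SD, n = 3 each), with an interval of -0.47 to 0.19 for Tgif1 null minus P3. EphB4 differed by -0.69 in P5 against P3 (interval -1.44 to 0.06). Ephrin A5, which sets retinal map positions, differed by -0.32 between Tgif1 null and wild type P3 (adjusted p = 0.248). EphA4, the receptor that binds ephrins of both classes, differed by 0.56 in P5 against P3 (adjusted p = 0.0871) and by 0.45 in Tgif1 null against wild type P3 (adjusted p = 0.345). EphA7 differed by -0.68 in Tgif1 null P3 against P5 (adjusted p = 0.0525). The EphA7 value 6.47 stood on all 3 wild type P3 arrays and also on Tgif1 null replicate 3.

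The detected semaphorins of classes 4, 6 and 7 likewise passed in no comparison. Sema7a, a lipid-anchored semaphorin that binds integrins, had the widest difference in P5 against P3 among the brightest probe-sets, 1.23 (interval 0.32 to 2.14, adjusted p = 0.122), at 4.91 ± 0.43 in Tgif1 null P3, 5.67 ± 0.65 in wild type P5 and 4.44 ± 0.25 in wild type P3 cells (SD, n = 3 each). Sema6d, which acts through plexin A1, differed by -0.66 between Tgif1 null and wild type P3 (adjusted p = 0.312), and Sema4f by -0.77 (adjusted p = 0.551). Sema4c, a ligand of plexin B2, and Sema4b differed by -0.33 and -0.50 in P5 against P3 (adjusted p = 0.205 and 0.173). Over the 56 detected family probe-sets the median difference was -0.01 in Tgif1 null P3 against wild type P3, 0.20 in P5 against P3 and -0.21 in Tgif1 null P3 against P5, beside medians of -0.00, -0.01 and 0.01 over all 18428 detected probe-sets.

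Genes that work with these families were read from lists of co-receptors, signalling partners and other guidance cues, each by its brightest probe-set. Over all 18194 genes read that way, 1.51% rose and 1.07% fell in Tgif1 null P3 against wild type P3, 6.13% and 7.11% in P5 against P3, and 6.08% and 5.33% in Tgif1 null P3 against P5. The lists hold 8 to 35 genes each, and nothing is read from them as groups. Of 35 measured co-receptor and signalling genes of semaphorins, 0 rose and 0 fell in Tgif1 null P3 against wild type P3, and 3 rose and 2 fell in P5 against P3. Nrcam, an adhesion molecule that joins neuropilins, rose by 1.04 (adjusted p = 0.00358), Rnd1, a GTPase that binds plexins, by 1.29 (adjusted p = 0.00216) and Itga1, a collagen-binding integrin, by 1.92 (adjusted p = 0.0116), while Arhgap35 fell by 0.23 (adjusted p = 0.0327) and Crmp1, a collapsin response mediator named here after its values were seen, by 0.96 (adjusted p = 0.0330). In Tgif1 null P3 against P5 cells 3 fell, Nrcam by 0.93 (adjusted p = 0.00557), Rnd1 by 0.97 (adjusted p = 0.00641) and Gipc1 by 0.34 (adjusted p = 0.0448), the last an adaptor of the neuropilin tail.

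Of 8 measured VEGF ligands and receptors that use neuropilins, none passed in Tgif1 null P3 against wild type P3. Against P5, 3 rose, the lymphatic growth factor Vegfc by 0.93 (adjusted p = 0.00885), placental growth factor Pgf by 0.83 (adjusted p = 0.0197) and the receptor Flt1 by 0.93 (adjusted p = 0.0270), and the X-linked Vegfd fell by 0.81 (adjusted p = 0.0232). In P5 against P3, Vegfd rose by 0.68 (adjusted p = 0.0375). Of the 10 endothelial markers Emcn alone rose in Tgif1 null P3 cells against P5, by 1.61 (adjusted p = 0.0254), with summed signals of 147 to 202 in Tgif1 null P3, 135 to 147 in wild type P5 and 170 to 193 in wild type P3 cells.

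Of 33 measured ephrin and Eph signalling genes, Kalrn, an exchange factor that acts with EphB receptors, rose by 0.42 (adjusted p = 0.00367) in Tgif1 null P3 and by 0.34 (adjusted p = 0.00134) in wild type P5, both against the same wild type P3 arrays, and no other passed in Tgif1 null against P3. Stat3 also rose in P5 against P3 (0.47, adjusted p = 0.0216), and Vav3, an exchange factor under 4 on all arrays, and Inppl1, a lipid phosphatase, fell by 0.86 (adjusted p = 0.0151) and 0.27 (adjusted p = 0.0191). In Tgif1 null P3 against P5, Inppl1 rose by 0.54 (adjusted p = 0.00208) and the kinase Abl2 by 0.34 (adjusted p = 0.0311), and the Rac exchange factor Tiam1 and the Ras inactivator Rasa1 fell by 0.26 (adjusted p = 0.0294) and 0.33 (adjusted p = 0.0210).

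Of 23 measured genes of netrin, Slit and RGM guidance, 1 passed in Tgif1 null P3 against wild type P3. That was Ntn4, a netrin of basement membranes, with a mean of 5.40 in Tgif1 null P3, 8.66 in wild type P5 and 8.56 in wild type P3 cells. It was 0.11 higher in P5 than in P3 (adjusted p = 0.627). Ntn1, the founding netrin, fell by 1.50 (adjusted p = 0.00298) in P5 against P3, and rose by 1.71 (adjusted p = 0.00218) in Tgif1 null P3 cells against P5. Slit2, a secreted repellent that binds Robo receptors, rose by 0.71 (adjusted p = 0.0105) in P5 against P3 and fell by 0.74 (adjusted p = 0.0103) in Tgif1 null P3 against P5.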

How the data were processed

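RNA of 3 independent MEF cultures per group was hybridised to Affymetrix MOE430 2.0 arrays, 1 array per culture. Whether cultures of a group came from different embryos, or P5 cultures from the P3 ones, is not known here. The deposited log2 signals were made by the authors with GCRMA, in which a background is estimated from probe sequence, arrays are put on one distribution and probes are combined by median polish. In their processing notes the submitters list limma as well, and the sources used here give no versions. Values were used as deposited. Undetected probe-sets repeat low values that differ between probe-sets, none under 2.23, so decreases there cannot be seen. Some probe-sets counted as detected also repeat a value across groups. Among them are the brightest of Sema3e, Plxnb3, Plxnd1, Efna3, Epha1, Epha3, Epha7 and Ephb3. Precision rests on the number of arrays, and each p-value reflects variation between cultures. For MOE430 2.0, 34958 probe-sets had 1 gene symbol, 932 several and 9211 none here, and 52 of 53 genes of the families had a probe-set (the other was not analysed here).

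All 45101 probe-sets entered 1 limma fit (limma 3.58.1, R 4.3.3) over the 3 groups, with moderated tests and Benjamini-Hochberg adjustment over all of them, checked on simulated data. A call was an adjusted p under 0.05. Sema5a, and for each comparison up to 10 family genes and up to 4 genes of each partner list with the smallest adjusted p under 0.05, were named. A list of partner genes is not reported here. Partner and marker genes were represented by their brightest probe-set. The members and lists were chosen with earlier results of these data known. Sema5a's neighbours and the GGGCGG and TATAAA motifs were chosen after seeing values. Alternatives were selection by a moderated F test over the 3 groups (p under 0.0001 and a log2 difference of at least 0.5), the same limits on the unadjusted p of each comparison (chosen after seeing the data), filters at log2 4 and 6, a trended robust prior, renewed quantile normalization, a replicate block, 6 arrays alone, means of probe-sets per gene, and leaving out each array.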

Additional observations from a re-analysis of the deposited data

How the results depend on the processing

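Of 586 alternative values for the 33 called probe-set results, 395 kept direction and call, 191 kept direction and lost the call, and 0 reversed. By the F test selection 1 family probe-set was higher and 0 lower in P5 against P3, and 0 higher and 3 lower in Tgif1 null against P5. With the same limits on the unadjusted p of each comparison, chosen after seeing the data, 2 were higher and 0 lower in P5 against P3, and 0 higher and 5 lower in Tgif1 null against P5. Among probe-sets above a log2 signal of 4, 5 fell in Tgif1 null against P3 and 14 rose in P5 against P3. Sema5a has 2 probe-sets there, so not all of the 5 were its own. With a trended robust prior 0 fell in Tgif1 null against P3, 5 rose and 2 fell in P5 against P3, and 7 fell in Tgif1 null against P5. With the 6 arrays of the 2 groups alone 0 fell in Tgif1 null against P3, and 2 rose and 8 fell against P5. With the mean of a gene's probe-sets, counting genes, 5 rose and 1 fell in P5 against P3, and 1 rose and 8 fell in Tgif1 null against P5. Deviations from the group means correlated from -0.488 to 0.393 between same-numbered arrays, and from -0.61 to 0.622 between differently numbered ones. With 3 arrays per group this cannot decide whether replicate numbers pair the samples. With the replicate block 0 fell in Tgif1 null against P3, 5 rose and 1 fell in P5 against P3, and 3 rose and 9 fell in Tgif1 null against P5.

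Leaving out 1 array gave 0 to 0 higher and 0 to 4 lower in Tgif1 null against P3 (0 without wild type P3 replicate 3, and 1 without Tgif1 null replicate 2 or wild type P3 replicate 1), 4 to 12 higher and 1 to 4 lower in P5 against P3 (4 and 1 without P5 replicate 1, 5 and 1 without P3 replicate 1, 5 and 2 without P3 replicate 3, 2 lower without P5 replicate 2 or 3), and 3 to 4 higher and 8 to 13 lower in Tgif1 null against P5 (8 without Tgif1 null replicate 2 or P5 replicate 2, 9 without P5 replicate 1). Where an alternative moved a count, the cause was not tested. Signals near the lowest value limit what can be seen: 64 of the 123 probe-sets stayed under a log2 signal of 4 on all arrays.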
